A study of Homo sapiens with 4 samples.

Results

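The replication-dependent histone genes code for the bulk of the nucleosome, in the classes H1, H2A, H2B, H3 and H4. Their members were taken here as every gene whose annotated symbol follows the pattern of that family (H1-1 to H1-6, H2AC, H2BC, H3C and H4C genes), at any expression level. Of 70 such genes in RefSeq, 43 were named by a probe set of their own on the array. They carried 49 probe sets out of 54613 on the whole table, which named 19775 genes in all. The 49 comprised 7 probe sets of 6 H1 genes, 10 of 8 H2A genes, 15 of 14 H2B genes, 8 of 7 H3 genes and 9 of 8 H4 genes. A further 20 probe sets were annotated to several of these genes at once; they are given by class only, and 19 genes were measured on such shared probe sets alone.

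The study lowered DAXX, a histone chaperone, by siRNA in 2 human neuroendocrine tumour lines and measured RNA on Affymetrix arrays. QGP1 comes from a pancreatic tumour and NCI-H727 from a bronchial one. Each line gave 1 array of cells electroporated with a negative control siRNA and 1 array of cells electroporated with DAXX siRNA (DAXX-KD), at 50 nM, so there were 4 groups of 1 array. The labels name 2 DAXX siRNAs without saying whether they were mixed, state no time after electroporation and name no second culture, so each line stands for itself only. Line names here follow the sample titles. Other label fields disagree: QGP1 stands as the source of the NCI-H727 samples too, and all 4 descriptions speak of QGP1 cells with high ALDH.

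Replication-dependent histone genes are made in large amounts during S phase, when new DNA must be packed, and most lie in clusters, often as H2A and H2B pairs read outward from a shared promoter. Their messages normally end in a stem-loop bound by SLBP instead of a poly(A) tail, although poly(A) forms of some of them are known, chiefly outside S phase. DAXX works elsewhere in the same system: with ATRX it places the replication-independent variant H3.3, which comes from other genes, at telomeres and silent chromatin. The labelling kit used here primes from poly(A), and how much of each histone message carried a poly(A) tail was not measured.

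The 4 arrays had medians between 5.31 and 5.36 on the log2 scale, and Pearson's r over all probe sets was 0.995 for the QGP1 pair, 0.992 for the NCI-H727 pair and 0.924 between the controls of the lines. All 9 measured neuroendocrine markers and all 5 epithelial markers stood at or above the 40th percentile of the table (4.85, called the low-signal level below) on every array. Line markers were divided over the titles. NKX2-1, a lung lineage factor, read 8.77 and 8.38 on the arrays titled QGP1 and 3.35 and 3.23 on those titled NCI-H727, while the islet factor PDX1 lay between 5.23 and 5.54 on all 4. NKX2-2, an endocrine factor of islets, read 4.80 and 5.93 on the former and 9.17 and 9.25 on the latter. The islet factors PAX6 (6.64 against 5.12 in the controls) and ISL1 (9.61 against 8.82) and the ductal marker SPP1 (9.84 against 5.20) were higher on the arrays titled QGP1, and so was the bronchial marker GRP (12.80 against 5.37). Every statement about a difference between the lines therefore refers to the titles only. Summed signal of the fibroblast and endothelial markers was 394 to 458 over the arrays, and that of the leukocyte markers 219 to 231 in QGP1 and 579 to 636 in NCI-H727. On every array 5 of the 9 measured fibroblast and endothelial markers stood at or above the low-signal level, as did 3 of 5 leukocyte markers in QGP1 and 4 of 5 in NCI-H727. COL3A1 and PTPRC stayed under it on all 4 arrays, while COL1A1 and LYZ stayed above. The part of either list in the results below was not tested.

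DAXX itself read 8.52 in control and 6.56 in DAXX-KD QGP1 cells, and 7.35 and 6.14 in NCI-H727. This left 25.7% and 43.3% of the control level. A second DAXX probe set left 22.7% in QGP1 and 56.2% in NCI-H727, so the size in NCI-H727 depended on the probe set. Both arrays labelled DAXX-KD carried less DAXX message on either probe set.

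Promoter sequence is shown first, because the members that were lower after knockdown came from 2 classes, H2A and H2B, whose promoters share an element. RefSeq (GRCh38.p14) gave the 250 bases before the start for 40 of the 43 genes. Genes without an entry were H2BC12L, H3C11 and H4C1. Below are 5 genes with a probe set past 1.5-fold lower in QGP1 and in NCI-H727, and H2BC21, an H2B gene whose difference was within 0.34 in both, chosen as a contrast after its values were seen. Each is written 5′ to 3′ on the strand of the gene and ends at the base before the start. Capitals mark the octamer ATTTGCAT, the element bound by POU2F1 (OCT1) in H2B promoters, and CCAAT, each on either strand (ATGCAAAT and ATTGG).
H2BC12, chr6:27146859-27147108, minus strand: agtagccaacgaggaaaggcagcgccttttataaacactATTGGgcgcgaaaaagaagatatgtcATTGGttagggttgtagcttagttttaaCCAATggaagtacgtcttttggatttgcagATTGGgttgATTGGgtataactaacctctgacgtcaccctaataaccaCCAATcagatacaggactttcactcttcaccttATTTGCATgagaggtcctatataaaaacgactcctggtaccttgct
H2BC6, chr6:26183511-26183760, plus strand: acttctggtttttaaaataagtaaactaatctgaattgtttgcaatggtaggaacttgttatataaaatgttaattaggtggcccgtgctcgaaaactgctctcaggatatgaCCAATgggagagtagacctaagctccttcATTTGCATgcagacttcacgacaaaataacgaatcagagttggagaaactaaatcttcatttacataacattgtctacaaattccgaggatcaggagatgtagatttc
H2BC9, chr6:26251364-26251613, plus strand: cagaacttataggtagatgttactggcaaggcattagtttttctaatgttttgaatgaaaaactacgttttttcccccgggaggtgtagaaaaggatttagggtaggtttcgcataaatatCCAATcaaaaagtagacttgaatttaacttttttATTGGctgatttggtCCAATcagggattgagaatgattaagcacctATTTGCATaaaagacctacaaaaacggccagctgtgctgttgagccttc
H2BC5, chr6:26157871-26158120, plus strand: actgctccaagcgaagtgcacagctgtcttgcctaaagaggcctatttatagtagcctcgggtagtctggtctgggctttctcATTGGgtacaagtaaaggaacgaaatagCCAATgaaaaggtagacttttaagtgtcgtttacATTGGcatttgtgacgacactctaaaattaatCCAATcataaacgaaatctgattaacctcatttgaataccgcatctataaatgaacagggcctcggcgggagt
H2AC6, chr6:26123922-26124171, plus strand: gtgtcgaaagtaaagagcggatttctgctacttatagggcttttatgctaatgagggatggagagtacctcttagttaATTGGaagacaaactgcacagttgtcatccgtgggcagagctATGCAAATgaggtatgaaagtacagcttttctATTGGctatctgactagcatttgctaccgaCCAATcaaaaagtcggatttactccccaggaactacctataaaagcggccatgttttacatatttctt
H2BC21, chr1:149886683-149886932, minus strand: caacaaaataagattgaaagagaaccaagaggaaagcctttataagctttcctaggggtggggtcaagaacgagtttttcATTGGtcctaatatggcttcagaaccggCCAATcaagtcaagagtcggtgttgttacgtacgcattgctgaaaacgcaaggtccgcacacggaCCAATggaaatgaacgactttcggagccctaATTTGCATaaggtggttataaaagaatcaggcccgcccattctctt
The octamer began 46 bases before the start in H2BC12, 49 in H2BC9, 108 in H2BC6 and 130 in H2AC6, and H2BC5 had no exact match in this window. Among all 27305 promoters of the same length, 1.66% held it on either strand. Among the members 16 of 40 did: 10 of 13 H2B, 6 of 8 H2A and 0 of the H1, H3 and H4 genes. It did not separate the lower genes from the rest of their class. The octamer was in 4 of the 5 lower genes and also in 7 of 9 other H2B genes, and H2BC21 carried it at 46 bases, the same distance as H2BC12. CCAAT or its complement was in 35 of 40 member promoters against 33.0% of all, and TATAAA or its complement TTTATA in 27 of 40 against 11.1%. No match of 1 of the 3 motifs overlapped a match of another. These are matches of letters; binding was not measured.

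After DAXX knockdown, a small group of H2B genes and the H2A gene H2AC6 read lower in both lines, and no probe set named for a single H1, H3 or H4 gene was 1.5-fold lower in either. H2BC12 kept 35.9% of its control signal in QGP1 and 38.0% in NCI-H727, and H2BC12L kept 30.3% and 42.6%. H2BC6 (36.9% and 56.6%), H2BC9 (51.2% and 54.7%), H2BC5 (63.4% and 61.3%) and H2AC6 (59.1% and 36.7%) completed the group. With 1 array per group these are sizes without a replicate error, and none was called in the joint test over both lines. In bulk RNA, fewer cells in S phase and less histone RNA per cell cannot be told apart. Nor can a change in the share of histone RNA with a poly(A) tail, which was not measured. Some cell type markers differed on the same arrays. GRP, a peptide of neuroendocrine cells, had a difference of -1.04 in QGP1 and -1.24 in NCI-H727 (limma, unadjusted p = 0.000591, adjusted p = 0.979). NKX2-2 (1.13 and 0.08) and the endothelial marker PECAM1 (1.06 and 0.21) were higher in QGP1, and SPP1 differed by 0.37 and 0.83. Their part in the result was not tested.

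At 2-fold or more, 3 of the 49 member probe sets were lower in QGP1, where 0.161% of all probe sets were, and 3 of 49 were lower in NCI-H727, where 1.05% were. None of the 49 was 2-fold higher in QGP1 (0.145% of all) or in NCI-H727 (0.11% of all). At 1.5-fold or more, 6 were lower in QGP1 (1.46% of all) and 7 in NCI-H727 (4.35% of all), and 6 were lower in both (0.436% of all). The member count past 1.5-fold in the other direction was 1 in QGP1 (1.46% of all) and 0 in NCI-H727 (1.39% of all).

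Most members lay near 0. The median difference of the 49 was -0.06 in QGP1 and -0.10 in NCI-H727, beside -0.003 and 0.02 over all probe sets. Values below 0 numbered 28 of 49 in QGP1 (50.5% of all) and 34 of 49 in NCI-H727 (46.1% of all), with 23 below 0 in both lines (23.1% of all). The 43 probe sets outside the lower group ranged from -0.38 to 0.72 in QGP1 and from -0.75 to 0.39 in NCI-H727. For scale, probe sets of the same gene differed within a line with an SD of 0.22 in QGP1 and 0.28 in NCI-H727. The central 95% of all differences ran from -0.50 to 0.50 in QGP1 and from -0.73 to 0.51 in NCI-H727.

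**Figure D1:**
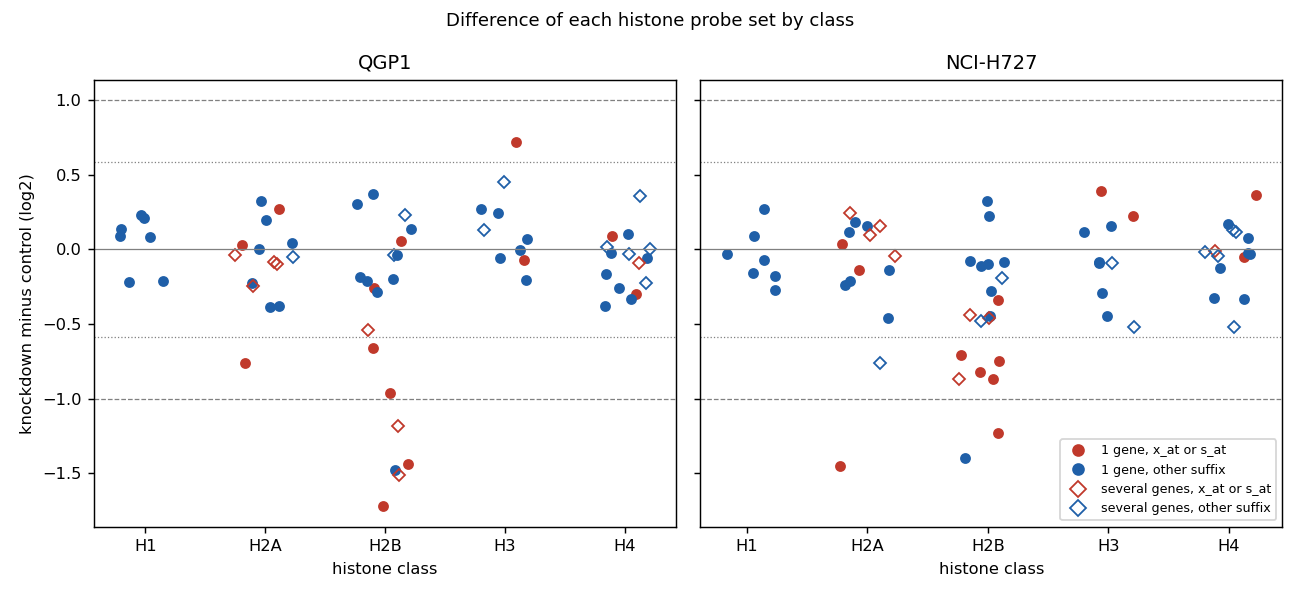
Log2 difference DAXX-KD minus control (vertical axis) of each member probe set and of shared probe sets of 1 class, by histone class. QGP1 is on the left and NCI-H727 on the right. Red marks x_at and s_at probe sets, and blue marks other suffixes. Filled circles are probe sets of 1 gene, and open diamonds are those of several genes. Horizontal lines mark 1.5-fold and 2-fold. The low points stand in the H2B column and, for H2AC6, in the H2A column, and most are x_at or s_at probe sets; the 2 probe sets shared by H2A and H3 genes are not drawn.

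In the joint fit (limma, all 54613 probe sets, cell line as a block), 0 probe sets of the whole table passed an adjusted p of 0.05, and every member had an adjusted p of at least 0.979. At an unadjusted p under 0.05, 7 members were lower (2.97% of all probe sets) and 1 was higher (1.89% of all). The 7 were the 6 probe sets above and the second probe set of H2BC5. This test sets the mean difference of the 2 lines against an error. That error comes from the disagreement of the lines (1 residual degree of freedom) and a prior over all probe sets (3.54 prior degrees of freedom). It holds no variation between cultures of the same line.

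H2BC12 had the H2B probe set of highest signal, although signal does not rank the amounts of different transcripts. It read 12.61 in control and 11.13 in DAXX-KD QGP1 cells, and 11.06 in control and 9.66 in DAXX-KD NCI-H727 cells. Both DAXX-KD arrays were below the control of their own line, but the QGP1 knockdown was still level with the NCI-H727 control, so the groups overlap when lines are ignored. The difference was -1.48 in QGP1 and -1.40 in NCI-H727, with a joint estimate of -1.44 and a standard error of 0.13 (limma, unadjusted p = 0.000173, adjusted p = 0.979). H2BC12 was the only member at least 1.5-fold lower on a probe set with the plain at suffix. In this family that suffix does not ensure a single gene, since some plain probe sets are annotated to several histone genes. Which transcripts the H2BC12 probes can bind was not checked.

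H2BC12L, an H2B gene on chromosome 21 named for its likeness to H2BC12, read 11.04 and 9.32 in QGP1 and 9.04 and 7.81 in NCI-H727, control first. The difference was -1.72 in QGP1 and -1.23 in NCI-H727, with a joint estimate of -1.48 and a standard error of 0.17 (limma, unadjusted p = 0.000545, adjusted p = 0.979). Its probe set is an x_at set, in which some probes can bind other transcripts, so its values and those of H2BC12 may draw in part on the same message.

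H2BC6 had the same order of arrays, with 9.43 and 7.99 in QGP1 and 7.77 and 6.95 in NCI-H727. Its difference of -1.44 in QGP1 was larger than the -0.82 in NCI-H727, a gap of 0.61 that 1 array per group cannot test. H2BC9 read 8.93 and 7.96 in QGP1 and 7.19 and 6.32 in NCI-H727, a difference of -0.96 and -0.87. For H2BC9 both DAXX-KD arrays were below their own controls by nearly equal steps.

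H2BC5 had 2 x_at probe sets, which differed in QGP1. The first read 9.99 and 9.33 in QGP1 and 8.82 and 8.11 in NCI-H727, a difference of -0.66 and -0.71. The second read 9.53 and 9.27 in QGP1 and 8.88 and 8.13 in NCI-H727, a difference of -0.26 and -0.75. The 2 probe sets were thus alike in NCI-H727 and 0.40 apart in QGP1, where only the first was past 1.5-fold.

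H2AC6, the 1 lower gene that codes for H2A, read 8.91 and 8.15 in QGP1 and 7.70 and 6.26 in NCI-H727 on an s_at probe set, all of whose probes can bind more than 1 transcript. Its difference was -0.76 in QGP1 and -1.45 in NCI-H727, so unlike H2BC6 it was larger in NCI-H727. The joint estimate was -1.10 with a standard error of 0.21 (limma, unadjusted p = 0.00402, adjusted p = 0.979).

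**Figure D2:**
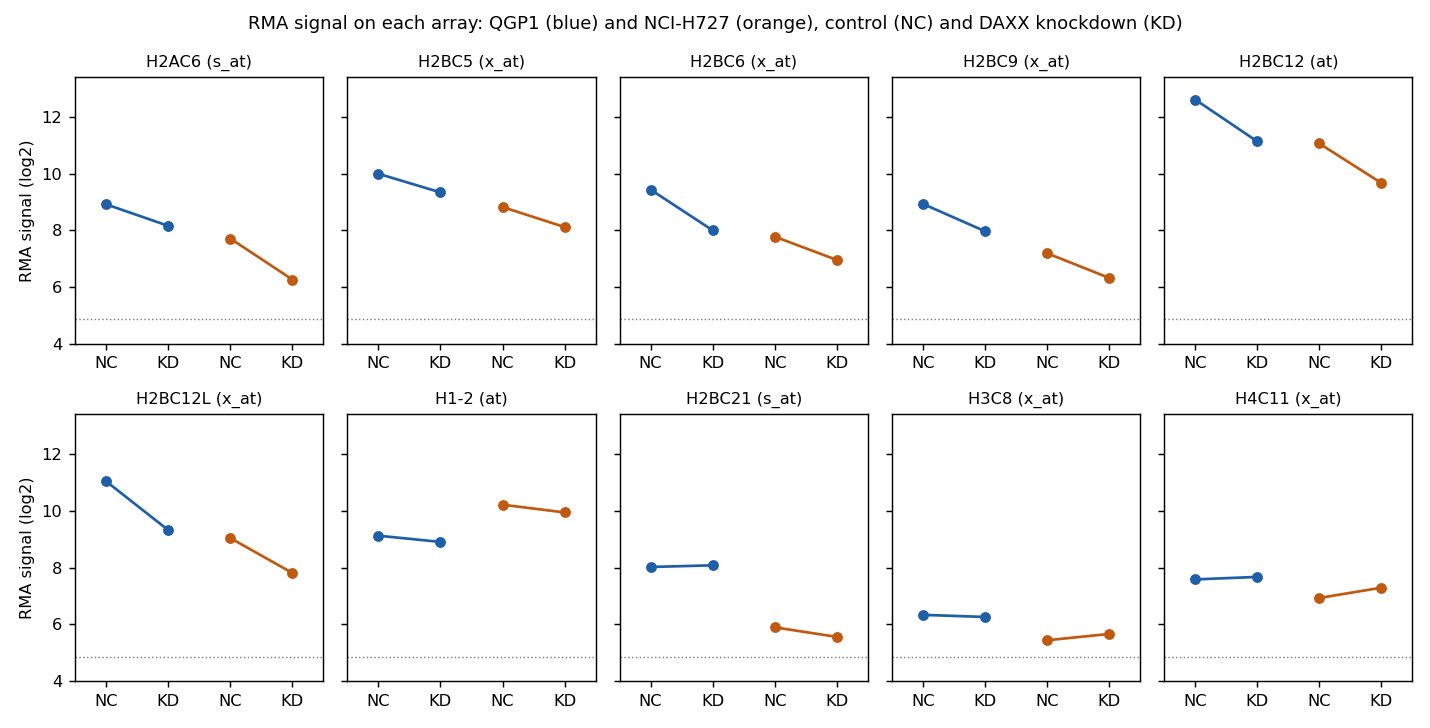
Deposited log2 level (vertical axis) of the 6 lower probe sets and of H1-2, H2BC21, H3C8 and H4C11 on the 4 arrays. NC is the control, and a line joins control and DAXX-KD of the same cell line. The dotted line is the low-signal level of 4.85. The lower genes step down from control to DAXX-KD in both lines, and their NCI-H727 pair lies under their QGP1 pair.

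In the other classes the probe sets of highest signal differed little. H1-2, a linker histone, read 9.12 and 8.90 in QGP1 and 10.22 and 9.94 in NCI-H727, a difference of -0.22 and -0.27. H2AC25 read 8.25 and 8.02 in QGP1 and 7.73 and 7.27 in NCI-H727, a difference of -0.23 and -0.46, while its x_at probe set gave 0.03 and 0.04. These steps are under 2 of the SDs given above for probe sets of 1 gene.

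H3C8 read 6.33 and 6.26 in QGP1 and 5.43 and 5.66 in NCI-H727, a difference of -0.07 and 0.22. H4C11 read 7.58 and 7.67 in QGP1 and 6.93 and 7.29 in NCI-H727, a difference of 0.09 and 0.36. Neither was past 1.5-fold in either line, and in NCI-H727 both read slightly higher after knockdown. The 1 member past 1.5-fold in the other direction, named after its values were seen, was H3C2. It read 4.52 and 5.24 in QGP1 and 4.06 and 4.45 in NCI-H727, a difference of 0.72 and 0.39 (limma, unadjusted p = 0.0159, adjusted p = 0.979), and only 1 of its 4 arrays was above the low-signal level.

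By class, the H2B median was -0.21 in QGP1 and -0.34 in NCI-H727, with 5 and 6 of 15 probe sets at least 1.5-fold lower. The H2A median was 0.01 and -0.14 with 1 of 10 lower in each line. H1 had a median of 0.09 and -0.07, H3 0.03 and 0.01, and H4 -0.16 and -0.03, with 0 probe sets at least 1.5-fold lower in either line. All 34 probe sets outside H2B had a median of -0.002 in QGP1 and -0.06 in NCI-H727. Signal differed among the members. Of the 49 probe sets 18 had a mean under the low-signal level and 14 were under it on all 4 arrays, where RMA compresses differences. All 6 lower probe sets were above it in every array, and among the 9 H2B probe sets with a mean above it the median was -0.66 in QGP1 and -0.75 in NCI-H727.

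The suffix moved with the result. Of 13 x_at and s_at members, 5 were at least 1.5-fold lower in QGP1 and 6 in NCI-H727, where 1.23% and 4.12% of all such probe sets were. Of the 36 with another suffix, 1 was lower in each line (1.56% and 4.44% of all such probe sets), and this was H2BC12 in both. Within H2B, the 6 x_at and s_at probe sets had a median of -0.81 in QGP1 and -0.79 in NCI-H727, against -0.18 and -0.10 for the 9 with the plain suffix. Signal moved with the suffix too: 6 of the 9 plain H2B probe sets had a mean under the low-signal level and 0 of the 6 x_at and s_at ones did. The part of probe sharing and of signal in the result was not tested. The number of separate messages behind the 6 lower probe sets therefore may be smaller than 6.

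Shared probe sets of the H2B class gave the same order of values where they were x_at. An x_at probe set annotated to 5 H2B genes read 9.23 and 7.72 in QGP1 and 7.53 and 6.66 in NCI-H727, a difference of -1.51 and -0.87. A second x_at probe set of the same 5 genes read 8.06 and 6.87 in QGP1 and 6.27 and 5.81 in NCI-H727, a difference of -1.18 and -0.46. The plain probe set of these 5 genes was at 5.64 and 5.86 in QGP1 and at 5.91 and 5.72 in NCI-H727, a difference of 0.23 and -0.19. The x_at and plain probe sets of the same annotation thus disagreed. H2BC6 is among the 5 annotated genes, so these are not independent of its own probe set.

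The highest signal came from a probe set shared by 14 H4 genes and hardly differed between arrays, at 13.22 and 13.19 in QGP1 and 13.20 and 13.16 in NCI-H727. Over all 20 shared probe sets, 3 were at least 1.5-fold lower in QGP1 and 2 in NCI-H727, with medians of -0.07 and -0.06. The third in QGP1, beside the H2B ones, was annotated to an H3 and an H2A gene, with a difference of -0.61 there and -0.08 in NCI-H727. Of the shared H2A probe sets, 1 annotated to 6 genes was lower in NCI-H727 by 0.76 on the log2 scale and by 0.05 in QGP1. The rest of the shared H4 probe sets lay between -0.22 and 0.35 in QGP1 and between -0.52 and 0.13 in NCI-H727.

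The differences of the lines went together over the H2B probe sets. Across the 49 members Pearson's r between the QGP1 and the NCI-H727 difference was 0.76 and Spearman's rho 0.48, beside 0.09 and 0.007 over all probe sets. Over the 15 H2B probe sets r was 0.88 and rho 0.79, and over the 34 others 0.49 and 0.21. These describe probe sets, which share probes and transcripts and are no replicates, so no p is given. The sign agreed in 32 of 49 members, against 48.8% of all probe sets, and in 13 of 15 H2B probe sets.

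**Figure D3:**
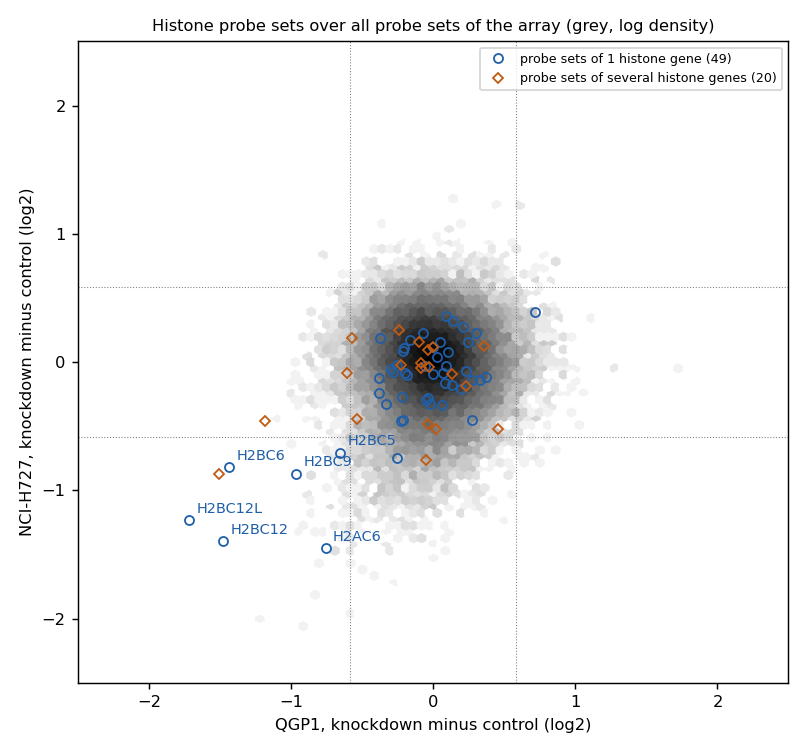
Log2 difference DAXX-KD minus control in QGP1 (horizontal) against NCI-H727 (vertical). Blue circles are the member probe sets, and orange diamonds are the probe sets shared by several histone genes. The density of all probe sets lies behind in grey on a log colour scale. Off the plot are 9 probe sets beyond 2.5 on either axis. The lower H2B probe sets and H2AC6 run out into the lower left corner, and the other members stay near the centre.

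The lines, by their titles, also differed in the level of these genes. In the same limma fit 16 members were lower in NCI-H727 at an adjusted p under 0.05 (14.4% of all probe sets). Only H1-2 was higher (12.1% of all). The 2 arrays of a line were its control and its DAXX-KD array, so these calls do not cover variation between cultures of a line. The 6 probe sets that were lower after knockdown were all lower in NCI-H727, with log2 differences of -1.20 to -1.76. H2B supplied 8 of the 16, H2A and H3 4 each, and H4 0. H2BC21 had the widest gap, with 8.02 and 8.08 in QGP1 and 5.89 and 5.55 in NCI-H727, which is 5.02-fold lower on average. It was lower between the lines but not after knockdown, where its difference was 0.06 in QGP1 and -0.34 in NCI-H727.

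RefSeq places 40 of the 43 genes on chromosome 6, 2 on chromosome 1 and 1 on chromosome 21. The starts of 4 lower genes, H2AC6, H2BC5, H2BC6 and H2BC9, lie within 127442 bases of chromosome 6. This stretch, chosen after the values were seen, also holds the starts of 8 other member genes that were not 1.5-fold lower in both lines. Measured divergent neighbours of lower genes had small differences. H2AC6 starts 246 bases from H2BC4 on the other strand, and the H2BC4 difference was -0.28 in QGP1 and -0.08 in NCI-H727 where that of H2AC6 was -0.76 and -1.45. H2BC4 was dim, between 5.02 and 5.55, though above the low-signal level on every array. The shared x_at probe sets given above, which read lower, are also annotated to it. H2BC9 starts 979 bases from H3C7, whose difference was -0.21 in QGP1 and 0.11 in NCI-H727, under the low-signal level on every array. In the 3 remaining pairs of genes with both sides measured and starts within 1000 bases, no gene of either side was past 1.5-fold.

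In RefSeq, 38 of the 43 genes span at most 797 bases, and 5 span over 1000 bases. H2BC12 (8566 bases) and H2BC5 (13229 bases) are among these 5, with H2BC4, H2BC21 and H3C6, and the other 4 lower genes are short. Isoforms could not be separated by these probe sets.

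Other gene lists around histones were read for the same differences, with no test between a list and the H2B genes. Per gene, taken at its probe set of highest mean signal, 1.29% of all genes were at least 1.5-fold lower in QGP1 and 3.94% in NCI-H727, and 1.71% and 1.57% were higher. In each of the lists that follow the joint fit called 0 genes (limma, adjusted p under 0.05). Dimmer probe sets of the same genes numbered 135 over the 6 lists. Of these, 2 were at least 1.5-fold lower and 1 was higher in QGP1, and 12 were lower and 2 higher in NCI-H727, with medians of 0.06 and -0.06. The lower ones in NCI-H727 included a probe set each of CCNE2 (-1.10), NASP (-0.93), ATRX (-0.84), SUPT16H (-0.78), RBBP4 (-0.75), LSM11 (-0.68) and NPAT (-0.60), so the counts below hold for the probe set of highest signal only.

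Among 9 measured replication-independent histone genes, 0 were 1.5-fold lower and 1 was higher, with medians of -0.001 in QGP1 and -0.02 in NCI-H727. The 1 was H2AJ, an H2A variant, at 9.60 and 10.22 in QGP1 and 10.14 and 10.39 in NCI-H727, a difference of 0.63 and 0.25. H2AX differed by -0.24 and -0.27 and CENPA, the centromeric H3, by -0.22 and -0.06. Dimmer H2AX probe sets did not repeat this, with 0.24 and 0.18, -0.04 and 0.08, and 0.05 and 0.03. The members of this list at an unadjusted p under 0.05 were H2AJ alone, higher.

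Of 25 measured genes for transcription and end processing of histone messages, 0 were past 1.5-fold in QGP1 and 1 was lower in NCI-H727, with medians of 0.08 and -0.09. That gene was CDK2, the kinase that activates NPAT at histone loci, with a difference of -0.23 in QGP1 and -0.66 in NCI-H727. CDK2 was also the 1 gene of the list at an unadjusted p under 0.05, lower. NPAT, the activator of histone transcription, differed by 0.10 and -0.12, and SLBP, which binds the stem-loop, by -0.02 and -0.09. LSM11, part of the U7 particle that guides the cut, differed by -0.15 and -0.50, and LSM10, its partner, by 0.08 and 0.37. POU2F1, which binds the octamer, was the 1 gene of the 26 on this list that was not measured.

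DAXX was 1 of 9 measured genes of H3.3 deposition. ATRX, its partner, had a difference of -0.15 in QGP1 and -0.60 in NCI-H727, the other gene of this list past 1.5-fold, and HIRA, which places H3.3 at active genes, differed by -0.06 and -0.04. The H3-H4 chaperone ASF1A differed by 0.13 and 0.49. Of 13 measured chaperones of replication-coupled deposition, 0 were past 1.5-fold in either direction, with medians of 0.09 in QGP1 and 0.05 in NCI-H727, and 0 were at an unadjusted p under 0.05.

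Among 38 measured genes of DNA replication and S phase, 0 were past 1.5-fold in either line, with medians of 0.11 in QGP1 and 0.03 in NCI-H727, beside 0.005 and 0.03 for all genes. Their range was -0.30 to 0.54 in QGP1 and -0.38 to 0.41 in NCI-H727, with 9 and 14 of the 38 below 0. PRIM1, the primase subunit, had the top mean difference, with 0.54 and 0.34, and 1 gene was higher and 0 lower at an unadjusted p under 0.05. At the other end, POLA1 differed by -0.10 and -0.38 and FEN1 by -0.03 and -0.35. Of 10 measured genes of cell cycle exit, 2 were at least 1.5-fold higher in QGP1 and 0 in NCI-H727, with medians of 0.23 and 0.02. They were GADD45A (0.83 and 0.20) and the cyclin-dependent kinase inhibitor CDKN2B (0.68 and 0.09). CDKN1A, the p21 inhibitor, differed by 0.40 and 0.47. The lowest mean differences were those of RB1 (-4.9e-05 and -0.21) and RBL2 (0.19 and -0.39). At an unadjusted p under 0.05, 2 genes of this list were higher and 0 lower.

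**Figure D4:**
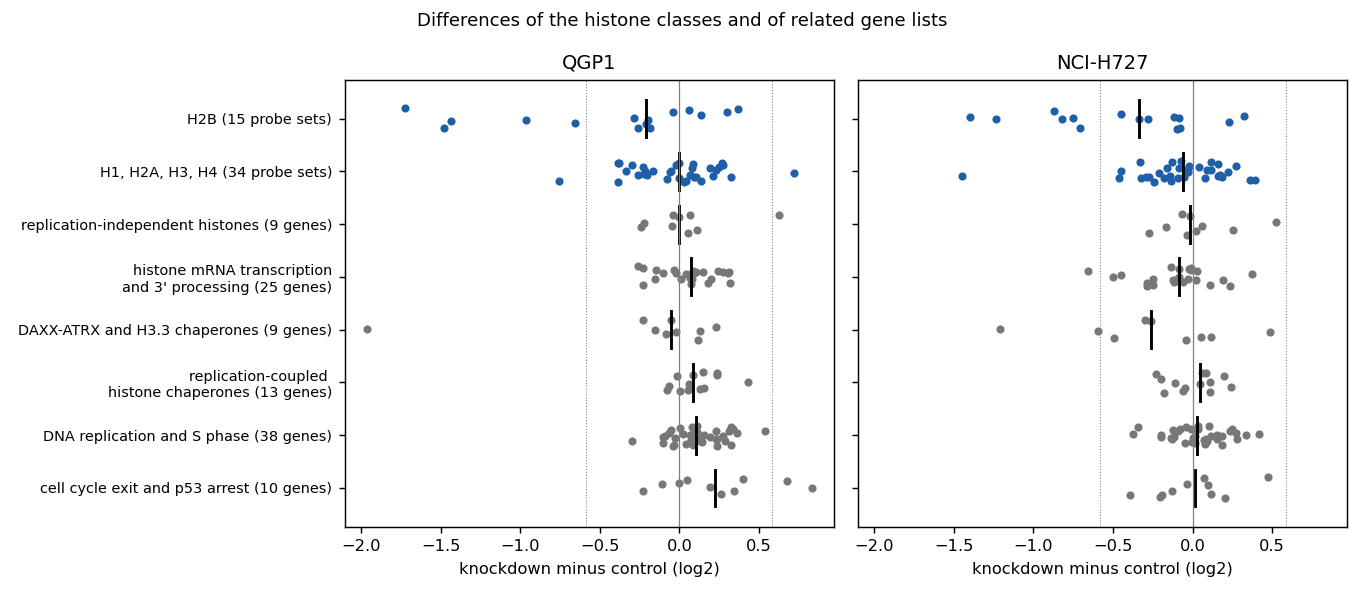
Log2 difference DAXX-KD minus control (horizontal axis) in QGP1 and NCI-H727 of each gene at its probe set of highest signal, for 6 other gene lists, with the H2B probe sets and the probe sets of the other 4 classes in the upper rows; black ticks give the median of each row and dotted lines 1.5-fold. The points furthest to the left are DAXX and H2B probe sets in QGP1, and H2AC6 and H2B probe sets in NCI-H727. The rows of S phase and replication-coupled chaperones hold no gene past 1.5-fold.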

How the data were processed

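Total RNA of 4 samples was amplified with a 3' IVT kit and hybridised to 1 Affymetrix array each, per the labels' protocols. Values in the deposited table were log2 expression from the authors' RMA run. The submitters' processing notes name affy 1.40.0 and R 3.0.3. Because RMA corrects background, makes the arrays' distributions equal and then summarises each probe set, a shift shared by most genes is removed and dim signal is compressed. All 54613 probe sets entered the main fit, with no filter on low values. Members were the probe sets with 1 annotated symbol of the family, and those with several symbols were kept apart.

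Each group had 1 array, so differences within a line were described by size, with no p-value. Both lines together were fitted in limma 3.58.1 under R 4.3.3, with treatment as the term of interest and the line as a block, which gave two-sided moderated tests, adjusted by Benjamini-Hochberg over all probe sets at 0.05. The p-values of this fit rest on the disagreement of the lines in the knockdown difference and on limma's prior, not on repeated cultures. With 4 arrays, their number limits precision. Motifs were searched in RefSeq promoters (GRCh38.p14).

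The members and the gene lists were chosen with earlier results of these data known. Named members were those past 2-fold in a line with an array above the low-signal level, those past 1.5-fold the same way in both lines, and the probe set of highest mean per class. Of the other lists, genes with the top mean differences in each direction were picked, but not all of those are named above. H2BC21, H2BC4, H3C2, H3C7, HIRA, NPAT, SLBP, CDKN2B the marker genes and the further probe sets of list genes were named outside this rule after their values were seen. Probe and protein sequences were not used here.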

Additional observations from a re-analysis of the deposited data

How the results depend on the processing

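Without x_at and s_at probe sets, the members at least 2-fold lower numbered 1 in QGP1 and 1 in NCI-H727 (3 each otherwise), those at least 1.5-fold lower 1 and 1 (6 and 7 otherwise), and those lower in both lines 1 (6 otherwise). That 1 was H2BC12. On the same probe sets, 1 member instead of 7 was lower at an unadjusted p under 0.05 (limma), and 6 instead of 16 were lower in NCI-H727 at an adjusted p under 0.05; these settings test fewer probe sets. Counted at 1.5-fold in place of 2-fold, the members were 6 lower and 1 higher in QGP1 and 7 lower in NCI-H727. With the probe sets shared by several histone genes included, an alternative chosen after the data were seen, 5 were 2-fold lower in QGP1. With no cell line block, 0 members were lower at an unadjusted p under 0.05; over all probe sets that fit gave 0 calls at an adjusted p under 0.05 and 183 at an unadjusted one, and limma with an intensity trend gave 0 and 2927.

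All 60 recomputed differences of the named members kept their direction under 3 other scalings. List medians were recomputed under 1 other scaling and with the mean of each gene's probe sets. Of these 24 values 6 changed sign, to between -0.08 and 0.05: the replication-independent histones in both lines, the DAXX-ATRX list in QGP1, and the replication-coupled chaperones and cell cycle exit in NCI-H727. No direction can be read from those medians. The adjusted p of H2BC12 ranged from 0.184 to 1 over 8 alternatives. The labels give no replicate numbers, so the cell line was the only pairing, and it is the block of the joint fit. With 1 array per group no array could be left out: a line alone gives its own difference with no test. Signal limits the 18 member probe sets under the low-signal level, where a difference may be compressed.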
